A study of Mus musculus with 96 samples.

Results

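The Hox genes are described here across 8 mouse tissues and 2 diets. The set was every probe of the array whose platform symbol was Hox followed by a cluster letter (a, b, c or d) and a number, which took 52 of 46632 probes and 37 genes. Cluster A on chromosome 6 contributed 9 genes, cluster B on chromosome 11 contributed 10, and clusters C on chromosome 15 and D on chromosome 2 contributed 9 each. For 26 genes there was 1 probe, for 8 there were 2, for 2 there were 3, and for 1 there were 4. Where a gene had several, the probe that was brightest on average stands for it unless another is named.

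Hox genes encode homeodomain transcription factors that lie in 4 chromosomal clusters. Within a cluster the genes are numbered in their order along the chromosome, and in the embryo the low numbers are expressed further forward along the body axis and the high numbers further back. Genes that share a number in different clusters are paralogs, that is, copies of one ancestral gene. Part of the embryonic pattern is kept in adult connective tissue, fat precursor cells and muscle, so that the set of Hox transcripts in a tissue carries a record of body position.

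The arrays came from DBA/2J mice, an inbred strain, that received a high-fat diet (HFD) or a standard breeding diet (SBD) for 6 weeks and were 12 weeks old and fasted for 2 h at dissection. Liver, skeletal muscle, brown fat and 5 white fat depots (gonadal, mesenteric, perirenal, inguinal and subcutaneous) were each measured on 6 biological replicates per diet, which gave 16 groups and 96 arrays. The labels give neither the sex nor the day of dissection of an animal. They call 2 pads Inguinal and Subcutaneous and 1 Perirenal. The description of the dissection speaks of a mainly inguinal subcutaneous pad, a gluteal pad and a retroperitoneal pad, and how these names correspond is not stated. The muscle taken was the quadriceps of the hind limb.

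Values are log2 intensities after background correction and quantile normalization, so 1 unit is a doubling, and a level can be compared between tissues for one probe but not between probes. A probe counts as above background in a group where its raw signal exceeded the 95th percentile of 1310 probes for olfactory and vomeronasal receptors on at least 4 of the 6 arrays. Tissue differences were tested with limma, adjusted by the Benjamini-Hochberg method over 46632 probes, and called at an adjusted p under 0.05. The value after ± is the standard deviation for a mean of 6 arrays and the standard error for a difference. In bulk tissue, fewer cells of a type and less RNA per cell cannot be told apart. With 6 arrays a group, precision is set by the number of arrays.

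Markers of other tissues were read in several groups. In SBD perirenal fat 8 of 9 skeletal muscle markers were above background, all but Myh1, with array means of 9.04 to 13.7. In SBD brown fat it was also 8 of 9, with array means of 11.9 to 12.7, against 14.4 to 14.6 in muscle and 7.11 to 7.42 in subcutaneous fat. In SBD gonadal fat it was 7 of 9 and in SBD inguinal fat 6 of 9, with array means of 8.05 to 11.1 and 7.65 to 10.7. In mesenteric fat all 6 exocrine pancreas markers were above background in both diets, with array means of 14.8 to 15.6 on the HFD and 7.19 to 15.4 on the SBD, where replicate 1 was the low one. Lymph node markers (6 of 7, all but Cr2) were above background in mesenteric and in subcutaneous fat. Markers of the labelled tissues were present: 8 of 8 for brown fat, 9 of 9 for muscle, 7 of 8 for liver without Tat, and 5 of 5 for white fat in each white depot, all on the SBD. There 5 of 8 brown fat markers were also above background in each white depot, all but Dio2, Elovl3 and Zic1. Among white depots they were highest in subcutaneous fat (array means of 10.1 to 11.1), against 12.2 to 12.5 in brown fat. Ucp1 averaged 14.31 in SBD subcutaneous and 14.90 in SBD brown fat. In SBD brown fat 3 of 5 white fat markers were above background, all but Retn and Agt. In the 6 fat tissues HFD replicates 3 to 6 were dim: their brightness, the upper quartile divided by the median of the raw signal, fell as low as 1.34, against 1.7 as the lowest on the SBD.

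Of the 37 genes, 23 were above background in at least 1 of the 16 groups and 14 in none. The 14 were Hoxa6, Hoxa10, Hoxa11, Hoxb8, Hoxb9, Hoxb13, Hoxc5, Hoxc11, Hoxc12, Hoxc13, Hoxd1, Hoxd3, Hoxd12 and Hoxd13, and 9 of them belong to the 15 genes numbered 9 to 13. Only Hoxb2, Hoxb4, Hoxb5 and Hoxb7, all of cluster B, were above background in all 16 groups. On the SBD, 13 genes were above background in all 6 fat tissues: these 4 together with Hoxa5, Hoxa7, Hoxc4, Hoxc6, Hoxc8, Hoxd4, Hoxd8, Hoxd9 and Hoxd11. Liver had the fewest Hox probes above background, 9 on the HFD and 6 on the SBD, and inguinal, perirenal and subcutaneous fat the most on the SBD, 23 each. The share of all probes above background was also lower in liver (25.7% and 26.1%) than in these 3 depots (38.7% to 39.4%). In muscle this share was near that of liver, 24.9% on the HFD and 27.1% on the SBD. There, however, 15 and 16 Hox probes were above background. The background itself was not level across tissues: the 95th percentile of the receptor probes lay between 7.66 and 7.85 in liver and muscle and between 7.02 and 7.23 in fat.

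**Figure D1:**
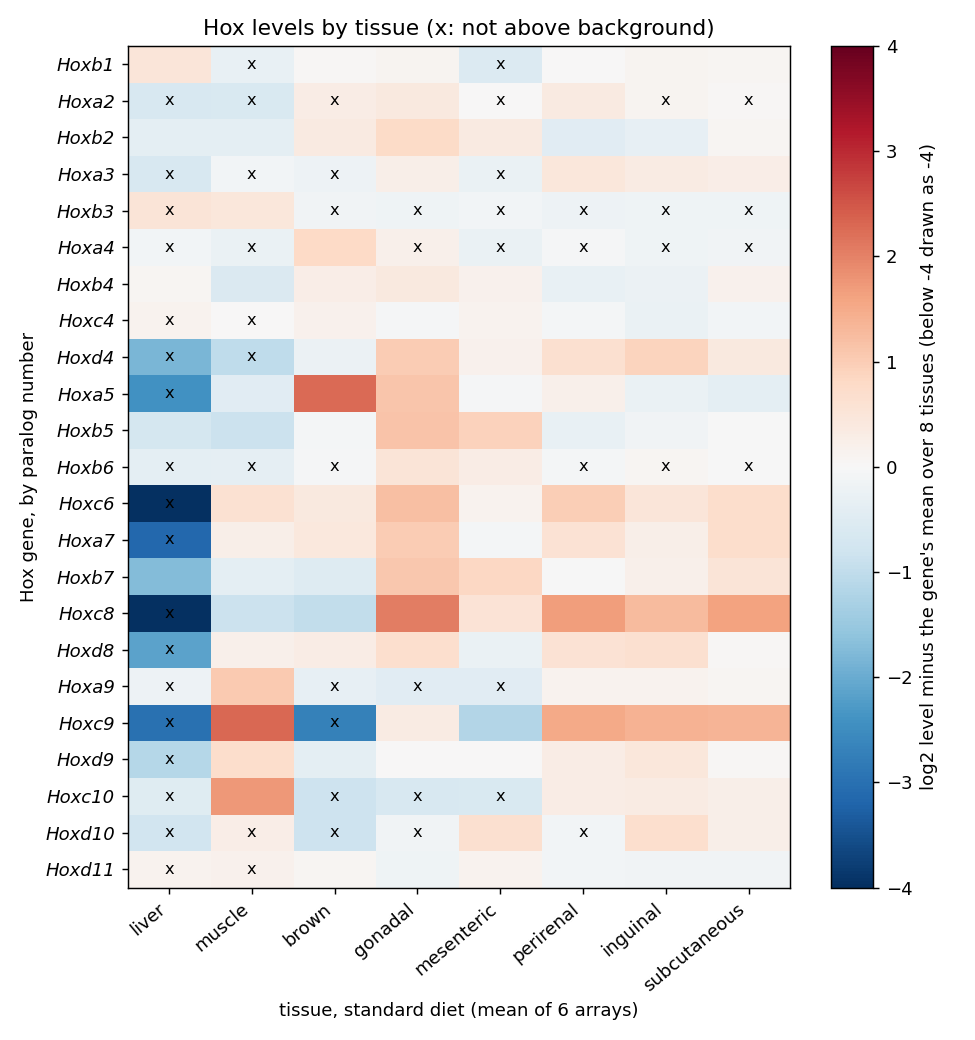
Mean log2 level of the 23 Hox genes above background in at least 1 tissue (rows, by paralog number) in 8 tissues (columns) on the standard diet, shown as the difference from the gene's own mean over the 8 tissues, with crosses where the gene was not above background. Among tissues without a cross, gonadal fat holds the highest mean of 11 genes and muscle that of 5, and liver shows crosses for most rows. Of the 11, Hoxb2 alone exceeded the next tissue beyond the spread.

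Upstream sequence is given for 4 of the genes that the results below turn on. On the SBD, Hoxa5 was higher in brown fat than in any other tissue. Hoxa7 was called lower on the HFD in 5 of 6 fat tissues, but in perirenal fat alone when the dim arrays had their own term. Hoxd4 and Hoxd8 differed together between inguinal and subcutaneous fat on the SBD. Each sequence is the 250 bases before the RefSeq start (build GRCm38.p6), written 5′ to 3′ on the gene's strand. Capitals mark matches on either strand to any of the 5 motifs searched. Hoxa5 lies on the minus strand at chr6:52204588-52204837, Hoxa7 on the minus strand at chr6:52218574-52218823, Hoxd4 on the plus strand at chr2:74721728-74721977 and Hoxd8 on the plus strand at chr2:74704365-74704614.
Hoxa5: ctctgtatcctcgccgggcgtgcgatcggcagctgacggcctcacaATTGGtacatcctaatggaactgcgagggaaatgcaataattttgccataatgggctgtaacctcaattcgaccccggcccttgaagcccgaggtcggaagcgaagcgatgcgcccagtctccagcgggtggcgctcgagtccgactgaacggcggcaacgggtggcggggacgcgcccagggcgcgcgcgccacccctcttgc
Hoxa7: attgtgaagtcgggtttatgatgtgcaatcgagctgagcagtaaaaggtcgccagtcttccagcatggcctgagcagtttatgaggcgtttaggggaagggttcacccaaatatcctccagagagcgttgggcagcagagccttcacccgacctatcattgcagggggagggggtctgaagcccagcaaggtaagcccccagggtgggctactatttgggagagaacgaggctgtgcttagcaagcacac
Hoxd4: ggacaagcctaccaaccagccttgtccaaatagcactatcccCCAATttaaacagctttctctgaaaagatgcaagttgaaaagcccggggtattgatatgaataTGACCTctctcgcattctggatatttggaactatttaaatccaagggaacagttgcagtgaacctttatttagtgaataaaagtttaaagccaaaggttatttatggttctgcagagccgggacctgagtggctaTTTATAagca
Hoxd8: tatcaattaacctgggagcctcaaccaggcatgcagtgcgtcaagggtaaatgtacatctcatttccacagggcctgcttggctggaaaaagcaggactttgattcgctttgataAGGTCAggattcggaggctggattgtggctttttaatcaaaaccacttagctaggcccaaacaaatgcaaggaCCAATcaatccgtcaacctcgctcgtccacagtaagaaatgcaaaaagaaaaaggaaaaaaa

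The RefSeq promoter table held 21 of the 37 genes, with 23 promoters. Both strands were searched for TGATTNAT (the joint site of Hox and Pbx proteins), TGACAG (a Meis site), AGGTCA (a core site of nuclear receptors, bound among others by retinoic acid receptors), the CCAAT box and the TATAAA box. The nuclear receptor site was present upstream of Hoxd4 and of Hoxd8 and in 6 of the 23 Hox promoters (26.1%), against 14% of all 32851 promoters of the same length. The Hox and Pbx site was present in 2 Hox promoters, those of Hoxa2 and Hoxd11 (8.7% against 2.82% of all), and the Meis site in 2, those of Hoxa2 and Hoxa3 (8.7% against 15.9%). The first of the boxes was present in 13 (56.5% against 33.8%), among them Hoxa5, Hoxd4 and Hoxd8, and the other in 4 (17.4% against 12.4%), among them Hoxd4. The Hoxa7 window held none of these letters. The Hox promoters had a median GC content of 58% and a median of 12 CG dinucleotides, against 52.4% and 6 over all promoters, and among the 4 shown Hoxa5 had 28 CG dinucleotides and Hoxd4 had 3.

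Across the 8 tissues on the SBD, 36 of the 52 Hox probes differed in at least 1 tissue, against 65.8% of all probes, and on the HFD 38, against 61.5%, shares near those of the array as a whole. The sizes were large for a few. Among the genes above background in at least 1 tissue, the range of tissue means was widest for Hoxc8 (7.30), followed by Hoxc6 (5.75), Hoxc9 (5.27), Hoxa5 (4.68), Hoxa7 (4.16), Hoxd4 (2.84), Hoxb7 (2.82), Hoxd8 (2.82), Hoxc10 (2.57), Hoxb5 (1.99), Hoxd9 (1.84) and Hoxa9 (1.50). Among the tissues in which a gene was above background on the SBD, the one with the highest mean was gonadal fat for 11 of 23 genes, among them 4 genes of cluster B numbered 4 to 7. It was muscle for 5 (Hoxb3, Hoxa9, Hoxc9, Hoxd9 and Hoxc10), 4 of them numbered 9 or 10, and brown fat for 3 (Hoxa4, Hoxa5 and Hoxc4). Perirenal fat was highest for Hoxa3, mesenteric fat for Hoxd11, inguinal fat for Hoxd10, liver for Hoxb1 and subcutaneous fat for none. Of the 11 genes highest in gonadal fat, Hoxb2 alone exceeded the next tissue beyond the spread (limma adjusted p = 0.000897). For the others the limma adjusted p was 0.0575 or more. Hoxd9 in muscle, Hoxc4 in brown, Hoxa3 in perirenal and Hoxd10 in inguinal fat did not exceed the next tissue either (limma adjusted p = 0.0938, 0.716, 0.91 and 0.959). Over all tissues, the mean of Hoxb3 was higher in liver (7.76) than in muscle (7.69) and that of Hoxd11 higher in muscle (7.53) than in mesenteric fat (7.51), and neither pair differed beyond the spread (limma adjusted p = 0.679 and 0.936).

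Brown fat was compared first with the mean of the 5 white depots. Hoxc9, which in the mouse specifies thoracic motor neurons, was not above background in brown fat and was present in every white depot. Hoxc8, a thoracic gene of the same cluster, was lower in brown fat, and Hoxa5, which patterns the neck and the lung in the mouse, was higher; these 3 had the largest differences. Of the 52 probes 21 were called, 7 higher and 14 lower, against 33% of all probes called (16.4% higher and 16.7% lower), and the median Hox difference was 0.0172 against 0.0212 over all probes.

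Hoxc9 read 6.45, 6.71 and 7.10 as the lowest, median and highest SBD brown array, against 9.55, 9.69 and 10.15 in gonadal, 7.83, 8.24 and 8.97 in mesenteric, 10.57, 10.91 and 11.22 in perirenal, 10.51, 10.84 and 11.14 in inguinal and 10.51, 10.79 and 11.05 in subcutaneous fat. Every white array lay above every brown one, the mesenteric arrays by the least. Brown fat averaged 6.73 ± 0.22 and the white depots 10.11, a difference of -3.38 ± 0.10 (limma adjusted p = 4.63e-49). Since no brown array was above background, the gene was at least 7.2-fold lower in brown fat. On the HFD no brown array was above background either (6.59 ± 0.19), and the difference from white fat was -3.20 (limma adjusted p = 2.15e-47). Skeletal muscle markers averaged 11.9 to 12.7 on the SBD brown arrays, and their part in the brown Hox readings was not tested. Hoxc10, its neighbour, which in the mouse specifies lumbar motor neurons, read 6.76 ± 0.06 in brown fat, where no SBD array was above background, against 7.51 in white fat, a difference of -0.76 ± 0.08 (limma adjusted p = 1.1e-14). It was at least 1.59-fold lower in brown than in inguinal, 1.54-fold than in perirenal and 1.47-fold than in subcutaneous fat, the 3 white depots where it was above background.

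Hoxc8 read 10.61, 10.80 and 11.30 in SBD brown fat as the lowest, median and highest array, against 13.66, 13.93 and 14.05 in gonadal and 12.07, 12.24 and 13.01 in mesenteric fat, the white depots with the highest and the lowest mean. No brown array reached any white one. The difference was -2.41 ± 0.11 (limma adjusted p = 8e-34). A second, dimmer Hoxc8 probe went the other way, at 7.79 in brown and 7.57 in white fat (0.22 ± 0.09, limma adjusted p = 0.041), and over the 16 group means the 2 probes had a Pearson r of -0.905. Those 16 points share arrays and normalization, and where on the transcript each probe lies was not analysed here. The 2 bright probes of Hoxa7, by contrast, had an r of 0.991 over the same 16 groups.

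Hoxa5 read 11.84, 12.08 and 12.34 in SBD brown fat, against 10.72, 10.85 and 11.47 in gonadal, 9.82, 10.07 and 10.22 in perirenal and 9.19, 9.41 and 9.69 in subcutaneous fat as the lowest, median and highest arrays. Brown fat lay above all white arrays. It averaged 12.09 ± 0.18, against 9.95 in the white depots (2.13 ± 0.09, limma adjusted p = 9.01e-36). In the order of tissues both brown over gonadal fat (1.14, limma adjusted p = 2.15e-13) and gonadal over perirenal fat (0.90, limma adjusted p = 1.01e-07) differed beyond their spread. Hoxa4, its neighbour in the cluster, which patterns neck vertebrae in the mouse, was above background only in brown fat on both diets and differed by 0.87 ± 0.08 on the SBD (7.49 against 6.62, limma adjusted p = 1.16e-15). It was at least 1.28-fold higher in brown than in inguinal and perirenal, 1.25-fold than in mesenteric and 1.3-fold than in subcutaneous fat. The other genes with large differences were lower in brown fat: Hoxb7 by -1.04 ± 0.08, Hoxd4 by -0.84 ± 0.09 (7.99 against 8.84) and Hoxd10, a lumbar gene not above background in brown fat, by -1.08 ± 0.13 (6.18 against 7.26). Their limma adjusted p-values were at most 1.11e-11. Hoxd10 was at least 1.33-fold lower in brown than in inguinal and 1.3-fold than in mesenteric fat. It was above background on no SBD gonadal or perirenal array, depots that the white mean includes. By paralog number, none of the 15 genes numbered 9 to 13 was higher in brown fat and 6 were lower (Hoxa9, Hoxa10, Hoxc9, Hoxc10, Hoxd9 and Hoxd10). Of the 15 numbered 4 to 8, 3 were higher and 5 lower. The same 6 were lower on the HFD, where 16 probes were called against 31.3% of all.

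**Figure D2:**
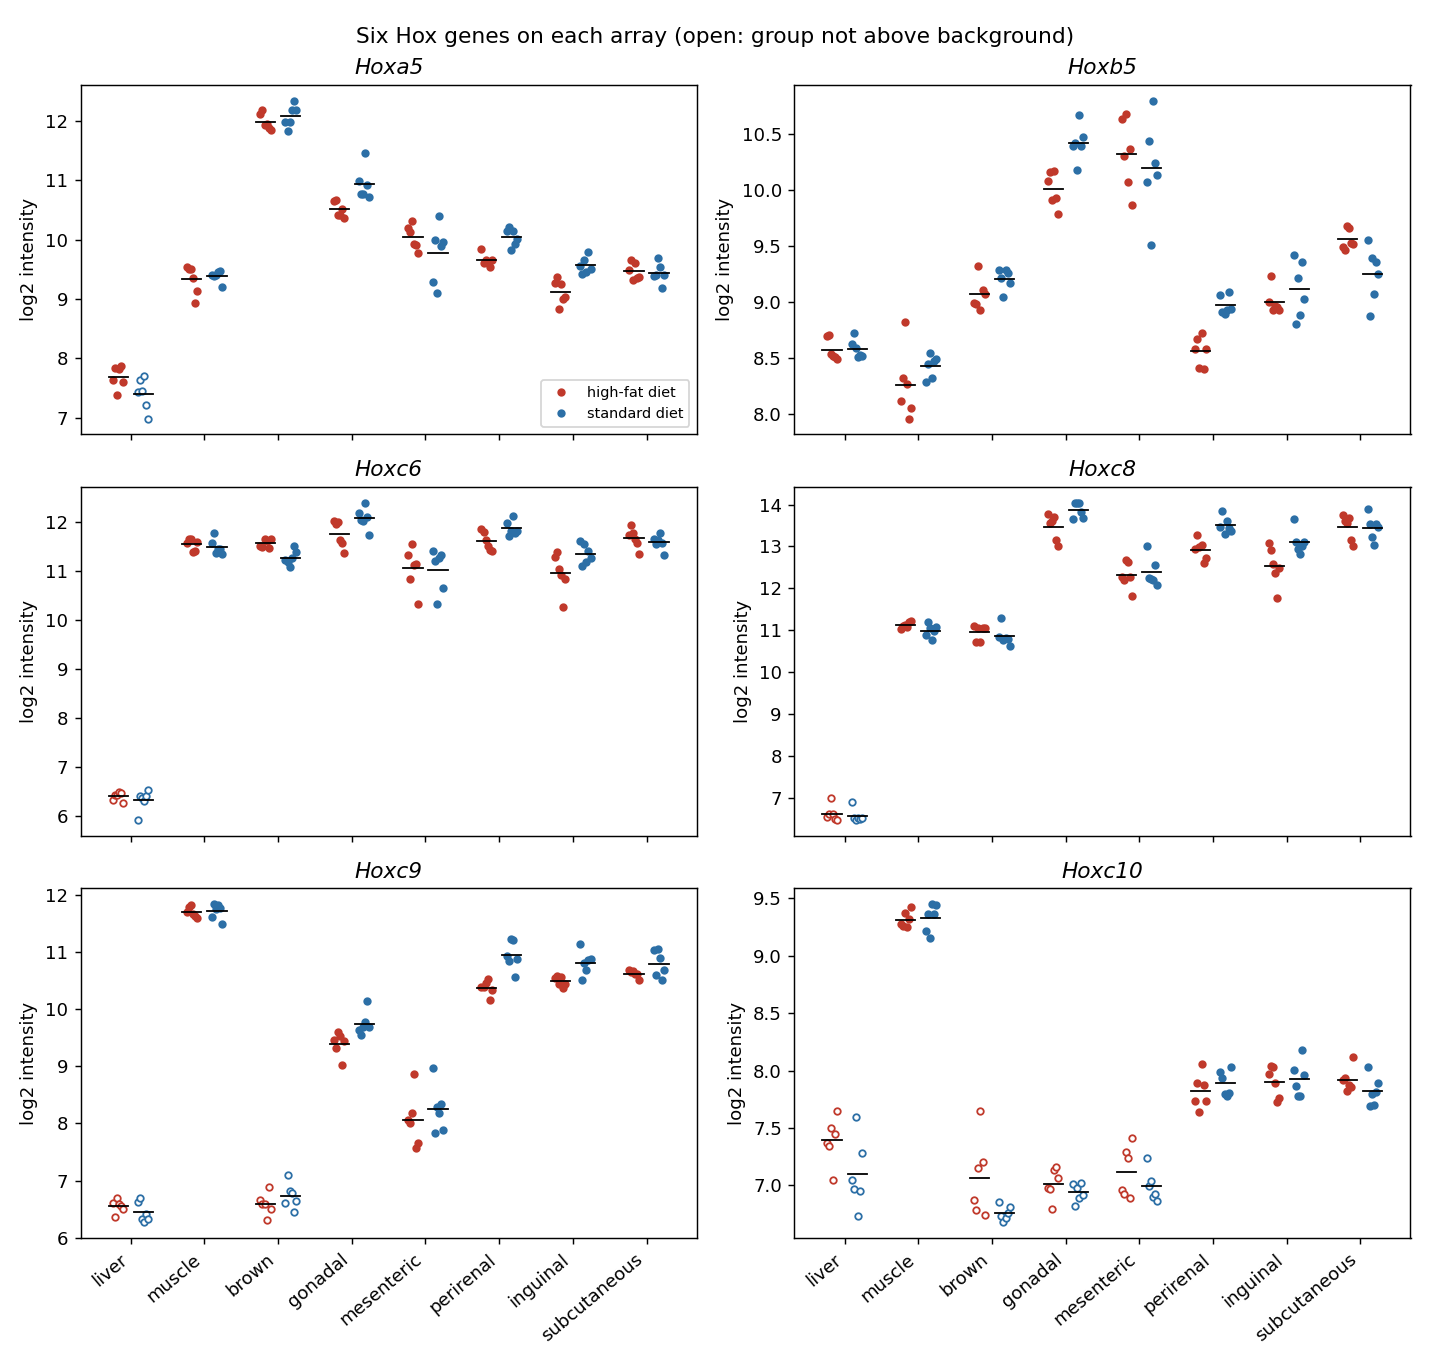
Log2 intensity (vertical axes) of 6 Hox genes on every array, by tissue, with the high-fat diet left of the standard diet, bars at the group means and open points where the group was not above background. Hoxa5 is highest in brown fat, Hoxc9 and Hoxc10 are highest in muscle and open in brown fat, and Hoxc6 and Hoxc8 are open in liver.

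Among the white depots, the 3 abdominal ones (gonadal, mesenteric and perirenal) were compared with the 2 under the skin (inguinal and subcutaneous). On the SBD the called genes numbered 2 to 7 were all higher in abdominal fat and those numbered 9 or 10 all lower. Of the 52 probes 9 were called, 4 higher and 5 lower, against 9.56% of all probes (3.97% higher and 5.59% lower), with a median Hox difference of 0.0145 against -0.00498 over all probes. Under median scaling of the arrays 7 were called, 2 of them higher. The 4 higher genes were Hoxa5 (0.75 ± 0.08), Hoxb5 (0.68 ± 0.07), Hoxb2 (0.35 ± 0.07) and Hoxb7 (0.27 ± 0.07). The 5 lower ones, all numbered 9 or 10, were Hoxc9 (-1.16 ± 0.08), Hoxc10 (-0.60 ± 0.06), Hoxa10 (-0.40 ± 0.06), Hoxa9 (-0.36 ± 0.07) and Hoxd10 (-0.31 ± 0.11, limma adjusted p = 0.0491). The other 8 had limma adjusted p of at most 0.0026. Hoxd10 passed without any one of 7 of the 30 arrays (gonadal replicate 1, 3 or 6, inguinal replicate 2, mesenteric replicate 1 or 3, or perirenal replicate 1). It missed the threshold without any one of the other 23, with limma adjusted p of up to 0.118, and with brightness as a covariate (0.0549). Hoxa9 and Hoxc10 were not above background in gonadal and mesenteric fat, and Hoxa10 was above it in no group. On the HFD, 11 probes were called against 14.1% of all, 3 higher (Hoxb2, Hoxa5 and Hoxb5) and 8 lower. The 8 were Hoxa9, Hoxa10, Hoxc9, Hoxc10, Hoxd9 and Hoxd10 together with Hoxb1 and Hoxd8, so the calls there did not divide by number.

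The 3 abdominal depots also differed among themselves, and for Hoxc9 and Hoxc10 perirenal fat lay with the pads under the skin. Within the 3 abdominal depots 23 probes differed, where 26.4% of all did, and on the HFD 21, where 25.3% did. Gonadal against perirenal fat gave 12 called Hox probes where 2.86% of all probes were called, and inguinal against perirenal fat gave 3 where 5.13% of all were called. Hoxc10 read 7.78, 7.87 and 8.03 in SBD perirenal fat as the lowest, median and highest array, against 7.78, 7.91 and 8.18 in inguinal and 7.69, 7.81 and 8.03 in subcutaneous fat, and 6.82, 6.94 and 7.02 in gonadal and 6.87, 6.96 and 7.23 in mesenteric fat. The first 3 depots overlapped and lay above all arrays of the other 2. Without perirenal fat in the comparison the abdominal difference of Hoxc9 became -1.81, and without mesenteric fat -0.46 (limma adjusted p = 7.67e-31 and 9.92e-05), and 14 probes were called in either case. Hoxb5 was 1.13 without perirenal and 0.51 without mesenteric fat, Hoxc10 was -0.91 and -0.46, and Hoxd10 missed the threshold without perirenal fat (-0.20, limma adjusted p = 0.374).

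The skeletal muscle markers of perirenal fat varied between its SBD arrays, from a mean of 9.04 to one of 13.7, where Hoxc9 lay between 10.57 and 11.22. Replicate 1 had the lowest marker mean, with Hoxc9 at 10.94 and Hoxc10 at 7.99, and replicate 4 had the highest, with Hoxc9 at 11.21 and Hoxc10 at 7.78. The part of muscle RNA in the perirenal Hox readings was not tested. Mesothelial markers, another cell type, were above background in SBD gonadal (5 of 7), mesenteric (4 of 7) and perirenal fat (4 of 7), with array means of 7.82 to 9.1, against 1 of 7 in inguinal and subcutaneous fat, with array means of 6.61 to 6.93. Upk1b and Gpm6a were below background in every depot, and the part of mesothelium in the Hox differences was not tested. In mesenteric fat the SBD replicate with the lowest pancreas marker mean (7.19) had the highest Hoxc8 (13.01) and the highest Hoxc9 (8.97) of that group, and the part of pancreatic RNA in the low mesenteric Hox readings was not tested.

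The order of depots differed by gene. For Hoxc9 on the SBD it ran perirenal (10.95), inguinal (10.81), subcutaneous (10.80), gonadal (9.75), mesenteric (8.25) and brown (6.73). The first 3 did not differ beyond their spread (limma adjusted p = 0.909 and 1 between neighbours), and each later step did (limma adjusted p of at most 2.15e-10). For Hoxb5, which takes part in gut innervation in the mouse, gonadal (10.42 ± 0.16) and mesenteric fat (10.20 ± 0.43) did not differ beyond their spread (limma adjusted p = 0.174). Both stood above subcutaneous (9.25 ± 0.25), brown (9.21 ± 0.09), inguinal (9.12 ± 0.25) and perirenal fat (8.97 ± 0.08), which did not differ from one neighbour to the next. Hoxb7 was also highest in gonadal (10.59 ± 0.26) and mesenteric fat (10.34 ± 0.15), which did not differ beyond their spread (limma adjusted p = 0.0738). Hoxc6, a thoracic gene of cluster C, lay within fat between 11.03 ± 0.43 in mesenteric and 12.08 ± 0.22 in gonadal fat, and no step between neighbours in its order over the 7 tissues other than liver passed. Gonadal fat exceeded mesenteric fat by 1.05 ± 0.14 (limma adjusted p = 5.54e-10), and the gene was called lower in brown than in white fat.

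Gonadal against mesenteric fat, 2 pads of the same cavity, differed in 17 Hox probes where 24.1% of all probes were called. Gonadal fat was higher in 15 of them, among them Hoxc9 (1.50 ± 0.13), Hoxc8 (1.49 ± 0.15), Hoxa5 (1.17 ± 0.12) and Hoxa7 (1.11 ± 0.11), and lower in Hoxd11 (-0.31 ± 0.11) and in Hoxd10, which was above background on no gonadal array and was at least 1.46-fold lower (6.86 against 7.65). Between gonadal and perirenal fat, Hoxb2 (1.21 ± 0.11), Hoxb4 (0.69 ± 0.14), Hoxa5 (0.90 ± 0.12), Hoxb5 (1.45 ± 0.11), Hoxb6 (0.58 ± 0.14), Hoxa7 (0.45 ± 0.11) and Hoxb7 (1.10 ± 0.11) were higher in gonadal fat, and Hoxc9 (-1.20 ± 0.13) was lower. Hoxc10 and Hoxa9, not above background in gonadal fat, were at least 1.73-fold and 1.16-fold lower there. Hoxa10 was also called lower but was above background in neither depot, so no fold is given. The limma adjusted p-values of the genes named for both pairs were at most 0.0233.

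Inguinal and subcutaneous fat, the pads under the skin, differed in 6 of 52 Hox probes, 3 higher and 3 lower, against 7.14% of all probes (3.45% higher and 3.69% lower), with a median Hox difference of -0.00467 against 0.00694. Under median scaling 2 were called, both higher. The 3 higher in inguinal fat were neighbours in cluster D: Hoxd8, Hoxd4 and Hoxd9. Hoxd8 read 8.85, 9.17 and 9.28 in SBD inguinal fat, against 8.28, 8.57 and 8.79 in subcutaneous fat as the lowest, median and highest array, with no overlap, and differed by 0.61 ± 0.11 (limma adjusted p = 1.16e-05). Hoxd4 read 8.89, 9.14 and 9.31 in inguinal fat, against 8.38, 8.62 and 8.72 in subcutaneous fat, again with no overlap (0.51 ± 0.12, limma adjusted p = 0.00118), and Hoxd9 differed by 0.42 ± 0.12 (limma adjusted p = 0.0159). Hoxa7 (-0.46 ± 0.11), Hoxb2 (-0.41 ± 0.11) and Hoxb7 (-0.32 ± 0.11, limma adjusted p = 0.0412) were lower in inguinal fat. Hoxb7 passed without inguinal replicate 1 or 6 or subcutaneous replicate 2 and missed the threshold without any one of the other 9 of the 12 arrays (limma adjusted p of up to 0.164), and Hoxd9 missed it without subcutaneous replicate 5 (0.0509). On the HFD also 6 probes were called, all lower in inguinal fat, where 1.82% of all were called and 1.26% were lower, and the cluster D genes missed the threshold (Hoxd8 at 0.32, limma adjusted p = 0.151; Hoxd4 at 0.11, limma adjusted p = 0.983; Hoxd9 at 0.29, limma adjusted p = 0.432). Lymph node markers were above background in subcutaneous fat (array means of 9.03 to 10.2 on the SBD, 6 of 7 above). They were lower in inguinal fat (7.14 to 7.49, 4 of 7 above, with Ms4a1, Cd79a and Cr2 below). Skeletal muscle markers went the other way on the SBD. In inguinal fat 6 of 9 were above background (array means of 7.65 to 10.7), and in subcutaneous fat 2 of 9 (7.11 to 7.42). The part of lymph node and of muscle RNA in these differences was not tested.

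Muscle was compared with the mean of the 6 fat tissues. Of the 52 probes 29 were called, 13 higher and 16 lower, against 54.9% of all probes (28.4% higher and 26.5% lower), with a median of 0.0326 against 0.0227. By gene the calls split by paralog number: of the 15 genes numbered 9 to 13, 8 were higher in muscle and none lower, and of the 15 numbered 4 to 8, none was higher and 10 were lower. The 8 were Hoxa9, Hoxa10, Hoxb9, Hoxc9, Hoxc10, Hoxd9, Hoxd11 and Hoxd12, of which Hoxa10, Hoxb9 and Hoxd12 were above background in no group. Hoxd11 exceeded background on only 2 of the 6 SBD muscle arrays and so did not count as above it there. On the HFD, where 31 probes were called against 49.5% of all, 12 of the 15 were higher and none lower, and of the 15 numbered 4 to 8, 2 were higher (Hoxa7 and Hoxc4) and 7 lower. Of the 12, only Hoxa9, Hoxc9, Hoxc10 and Hoxd9 were above background in HFD muscle. The receptor background was itself higher in muscle than in fat (7.66 against 7.09 to 7.23 on the SBD). On the HFD it was 7.847 in muscle and 7.021 to 7.215 in fat. Its part in the small differences of genes below background was not tested.

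Hoxc9 read 11.49, 11.77 and 11.84 in SBD muscle as the lowest, median and highest array, against at most 11.22 on any fat array. Muscle lay above all fat arrays, by 2.17 ± 0.10 over their mean (limma adjusted p = 5.24e-36), at least 21.9-fold above brown fat and at least 15.7-fold above liver. Hoxc10 read 9.16, 9.36 and 9.45 in muscle, against at most 8.18 in fat, and differed by 1.94 ± 0.08 (limma adjusted p = 1.81e-40), with at least a 4.19-fold difference from brown fat and at least 4.69-fold from gonadal fat. Hoxa9, which with Hoxd9 patterns the upper limb segment in the mouse, read 7.73, 8.28 and 8.48 in muscle, against at most 7.52 in fat (1.19 ± 0.08, limma adjusted p = 4.27e-25). For all 3 genes every SBD muscle array lay above every SBD fat array. Of the other Hoxa9 probes, both below background in all groups, 1 was also higher in muscle (0.49 ± 0.09) and the other did not pass (-0.11, limma adjusted p = 0.295).

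The genes lower in muscle were led by Hoxc8 and Hoxd4. Hoxc8 read 10.76, 11.02 and 11.20 in muscle, within 0.14 of the mean in brown fat and below every white array, a difference of -1.87 ± 0.11 from fat as a whole (limma adjusted p = 2.67e-27). Its dimmer probe was higher in muscle (0.72 ± 0.09, limma adjusted p = 4.97e-12). Hoxd4, which patterns neck vertebrae in the mouse, was above background on no muscle array (7.20 ± 0.29, against 8.70 in fat) and was at least 2-fold lower there. Hoxb5 differed by -1.10 ± 0.09, Hoxa5 by -0.92 ± 0.09 and Hoxa2, a gene of the hindbrain and the second branchial arch, by -0.81 ± 0.11, with limma adjusted p of at most 1.7e-09. Hoxa2 was not above background in muscle.

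**Figure D3:**
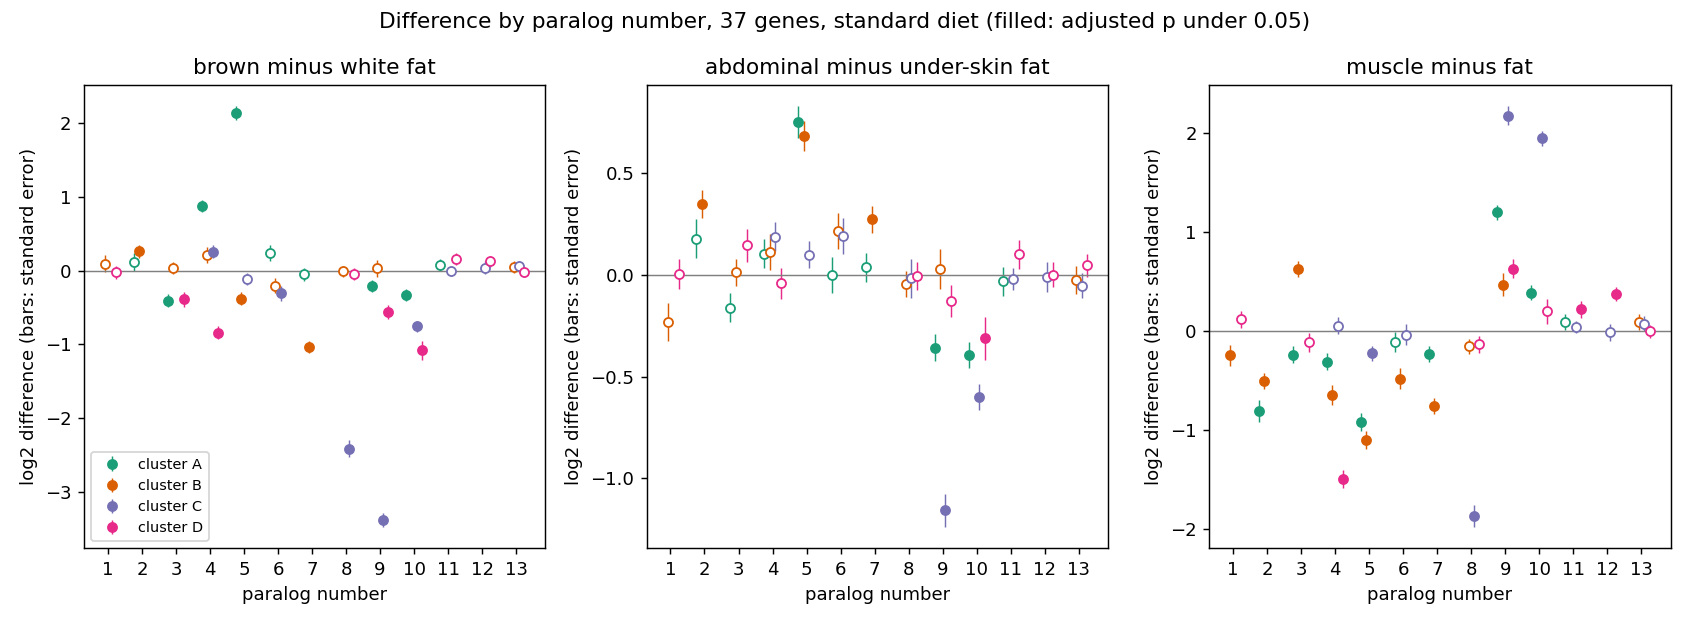
Log2 difference with its standard error (vertical axes) of 37 Hox genes against paralog number (horizontal axes) for brown minus white fat, abdominal minus under-skin fat and muscle minus fat on the standard diet, coloured by cluster and filled where the adjusted p was under 0.05. Among the genes numbered 9 to 13 the filled points are all below 0 in the first 2 panels (6 and 5 genes) and all above 0 in the third (8 genes).

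Over the 37 genes, the Pearson and Spearman correlations of the SBD difference with paralog number were 0.37 and 0.517 for muscle minus fat, -0.316 and -0.407 for abdominal minus under-skin fat, -0.16 and -0.113 for brown minus white fat and 0.205 and 0.223 for inguinal minus subcutaneous fat. These are descriptions across genes. The genes share arrays, 14 of them were not above background anywhere, and several comparisons share the same fat arrays.

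Liver was the tissue with the least Hox signal. Of the 52 probes 33 were called against fat, 13 higher and 20 lower, against 59.2% of all probes (31.9% higher and 27.3% lower), with a median of -0.061 against 0.0346, and by gene 8 were higher and 18 lower. On the HFD 32 were called, against 53.8% of all. Of the 8 genes higher on the SBD, only Hoxb1 was above background in liver. Hoxb3 was not above it in liver, and Hoxb9, Hoxb13, Hoxc13, Hoxd1, Hoxd12 and Hoxd13 were above it in no group. The receptor background was 7.70 in SBD liver and 7.085 to 7.233 in SBD fat, and its part in these differences was not tested. Hoxc8 read 6.48, 6.52 and 6.90 on the SBD liver arrays and was above background on none, against 12.86 as the mean of the fat tissues. It was at least 34.6-fold lower in liver, and Hoxc6 was at least 13.8-fold lower (6.32 ± 0.22, against 11.53). Hoxa7 was at least 7.33-fold, Hoxa5 at least 5.89-fold, Hoxd8 at least 2.11-fold and Hoxd4 at least 1.93-fold lower. Hoxc9, above background on no liver array (6.45), was at least 5.14-fold lower than in white fat. Hoxb7, which was above background in liver (7.77 ± 0.25), differed by -2.09 ± 0.08, and the limma adjusted p-values of these 8 genes were at most 7.02e-41. The 6 probes above background in SBD liver were those of Hoxb1, Hoxb2, Hoxb4, Hoxb5 and Hoxb7, all of cluster B, and the dimmer Hoxc8 probe. Hoxb5 stood at 8.58 ± 0.08 on all 6 SBD arrays, and did not differ from muscle beyond the spread (limma adjusted p = 0.344). Hoxb1 was highest in liver (8.16 ± 0.39, 0.53 ± 0.11 above fat, limma adjusted p = 1.98e-05), and the dimmer probes of Hoxc8 and Hoxc6 were higher there than in fat (0.98 ± 0.09 and 0.23 ± 0.08). This Hoxc6 probe was not above background in liver.

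Genes that work with Hox proteins or set their expression were read in the same fits. Of all probes, 33% were called between brown and white fat (16.4% higher and 16.7% lower in brown). Between abdominal and under-skin fat it was 9.56% (3.97% higher and 5.59% lower), and between muscle and fat 54.9% (28.4% higher and 26.5% lower). The list counts below are to be read beside these shares. Of 7 measured TALE cofactors, the homeodomain partners of Hox proteins, 2 were higher and 1 lower in brown than in white fat (Pbx4 0.47 ± 0.08, Pknox2 0.24 ± 0.06 and Meis1 -0.45 ± 0.12), with a list median of -0.0427 against 0.0212 over all probes. Meis1 was the only one of the 7 that differed between abdominal and under-skin fat, 0.80 ± 0.10 (limma adjusted p = 1.09e-09), and it was lower in muscle than in fat (-0.96 ± 0.12). Of 17 polycomb genes, whose products keep Hox clusters silent, 2 were higher and 4 lower in brown fat, led by Cbx6 (-1.09 ± 0.12; list median -0.107). None was called by limma between abdominal and under-skin fat (smallest adjusted p = 0.104), and 3 were higher and 5 lower in muscle, led by Bmi1 (1.36 ± 0.08). Of 8 trithorax genes, whose products keep them active, 3 were higher and 2 lower in brown fat, led by Psip1 (-0.97 ± 0.07; list median 0.0109). Of 15 genes of retinoic acid, a signal that induces Hox genes in the embryo, 3 were higher and 6 lower in brown fat, among them Rarb (1.06 ± 0.11), Rxrg (1.16 ± 0.09) and Aldh1a1, which makes retinoic acid (-1.80 ± 0.14; list median -0.148). In abdominal fat 3 were higher and 3 lower than in under-skin fat, among them Aldh1a2 (0.60 ± 0.07) and Cyp26b1, which breaks retinoic acid down (-1.09 ± 0.25). Of 9 other clustered or upstream homeobox and signalling genes, such as Cdx2 and Gdf11, none was called in either fat comparison.

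Diet was compared within each tissue over the probes brighter than the median, and the Hox changes were small beside the tissue differences. Hoxa7, a thoracic gene, was lower on the HFD in 5 of the 6 fat tissues, all but mesenteric fat. The values in the diet comparison are on a scale normalized within each tissue, and 4 of the 6 HFD arrays of each fat tissue were dim, so the counts are followed by those of fits that take brightness into account. Perirenal fat had the most: 12 of 29 Hox probes tested were called, 1 higher and 11 lower, against 24.4% of all probes tested (12.3% higher and 12.1% lower), with a median Hox difference of -0.219 against -0.0286 over all. In inguinal fat 8 of 30 were called, 1 higher and 7 lower (22.5% of all, 10.9% higher and 11.6% lower). In gonadal fat it was 5 of 27, all lower (11.3%, 5.79% higher and 5.51% lower), in brown fat 4 of 29, 3 higher and 1 lower (13.6%, 6.09% higher and 7.53% lower), and in subcutaneous fat 3 of 31, 2 higher and 1 lower (18.7%, 8.4% higher and 10.3% lower). In mesenteric fat (27 tested), liver (22) and muscle (32) limma called 0, with 5, 1 and 4 probes at an unadjusted p under 0.05, where 0.506%, 1.07% and 0.112% of all probes were called. With brightness as a covariate the counts were 10 in perirenal, 3 in gonadal, 2 in inguinal, 2 in subcutaneous and 0 in brown fat. When the dim arrays had their own term, 1 was called in perirenal fat and 0 in the others. Over the bright arrays alone, 2 on the HFD against 6 on the SBD, limma called 0 in each.

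In perirenal fat Hoxa7 averaged 10.59 ± 0.22 on the HFD, where no array exceeded 10.88, against 11.32 ± 0.26 on the SBD, with no overlap, and differed by -0.73 ± 0.13 (limma adjusted p = 0.00123). Its second probe moved the same way (-0.46 ± 0.09, limma adjusted p = 0.00221), and in the fit that gives the dim arrays their own term it was -0.72 (limma adjusted p = 0.0377). In gonadal fat Hoxa7 read 10.96 to 11.42 on the HFD, against 11.60 to 12.14 on the SBD, again with no overlap (-0.60 ± 0.11, limma adjusted p = 0.00282), and with the second probe at -0.58 ± 0.13. In inguinal fat the difference was -0.43 ± 0.09, in subcutaneous fat -0.46 ± 0.11 and in brown fat -0.38 ± 0.11, with limma adjusted p of 0.00449, 0.00796 and 0.0328, and the second probe was called in inguinal fat alone of these 3. HFD replicates 1 and 2 of perirenal fat, whose brightness was 2.41 and 2.58, against 2.07 to 2.17 on the SBD, read 10.40 and 10.79. With these 2 as the only HFD arrays the difference was -0.72 and did not pass (limma adjusted p = 0.0658). In the fits with a term for the dim arrays Hoxa7 stood at -0.43 in gonadal, -0.26 in inguinal, -0.30 in subcutaneous and -0.17 in brown fat and passed in none of these 4, and in brown fat it also missed the threshold without any one of 8 of the 12 arrays (limma adjusted p of up to 0.0791). In mesenteric fat it differed by -0.30 and did not pass (limma adjusted p = 0.205), though its arrays did not overlap.

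The other genes lower on the HFD lay in perirenal, inguinal and gonadal fat. In perirenal fat they were Hoxd9 (-0.57 ± 0.11), Hoxc9 (-0.56 ± 0.11), Hoxc8 (-0.53 ± 0.11), Hoxa3 (-0.51 ± 0.14), Hoxd8 (-0.48 ± 0.13), Hoxa2 (-0.47 ± 0.15), Hoxb5 (-0.45 ± 0.08), Hoxa5 (-0.40 ± 0.09) and Hoxc4 (-0.32 ± 0.09). Hoxc9 there read 10.77 to 11.13 on the HFD, against 11.17 to 11.82 on the SBD, without overlap, and Hoxb5 read 8.90 to 9.27, against 9.45 to 9.66. In inguinal fat Hoxa3 (-0.57 ± 0.15), Hoxc8 (-0.53 ± 0.17), Hoxa5 (-0.47 ± 0.10) and Hoxc9 (-0.32 ± 0.10) were lower, and in gonadal fat Hoxa5 (-0.43 ± 0.12) and Hoxb5 (-0.41 ± 0.10). The limma adjusted p-values of these 15 were 0.00167 to 0.0385. With a term for the dim arrays none of the 15 passed, and their limma adjusted p-values were 0.0569 to 0.861. In that fit Hoxa2 (-0.08), Hoxa3 (-0.22) and Hoxc4 (-0.18) in perirenal fat, Hoxa3 (-0.23), Hoxc8 (-0.10) and Hoxa5 (-0.26) in inguinal fat and Hoxa5 (-0.27) in gonadal fat were smaller by more than 1.5 times. Without any one of 8 of the 12 arrays Hoxa2 in perirenal and Hoxc8 in inguinal fat missed the threshold, as did Hoxc9 in inguinal and Hoxa5 in gonadal fat without any one of 5. On the scale of the tissue comparisons, skeletal muscle markers in perirenal fat had a median array mean of 10.36 on the HFD. On the SBD it was 12.02, and the arrays overlapped (9.44 to 12.35 on the HFD, 9.04 to 13.7 on the SBD). The part of muscle RNA in the perirenal diet differences was not tested.

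Higher on the HFD were Hoxb7 (0.29 ± 0.09), Hoxc6 (0.31 ± 0.08) and Hoxd4 (0.31 ± 0.09) in brown fat, with limma adjusted p of 0.0496, 0.0274 and 0.0365, and Hoxd4 (0.30 ± 0.09) and Hoxd8 (0.30 ± 0.09) in subcutaneous fat, with 0.0307 and 0.0335. With 1 of the 12 arrays left out, the brown calls were lost in 10, 7 and 6 runs and the subcutaneous ones in 4 and 7. None of the 5 passed where the dim arrays had their own term (limma adjusted p of 0.0858 to 0.66). Median scaling of the arrays, in which the median of all probes differed by -0.27 to -0.169 in the fat tissues, turned the sign of Hoxb7 (-0.07) and Hoxc6 (-0.15) in brown and of Hoxd4 in subcutaneous fat (-0.00262). The calls also included dimmer probes: Hoxa9 in inguinal and perirenal fat (0.39 ± 0.11 and 0.40 ± 0.12), Hoxc6 in inguinal fat (-0.35 ± 0.11) and Hoxc4 in gonadal fat (-0.33 ± 0.08). Where none passed, the smallest p-values were those of Hoxc4 and Hoxa7 in mesenteric fat (limma adjusted p = 0.177 and 0.205), Hoxd11 and Hoxb2 in liver (0.294 and 0.525) and Hoxb1 and Hoxb7 in muscle (0.419 and 0.437).

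**Figure D4:**
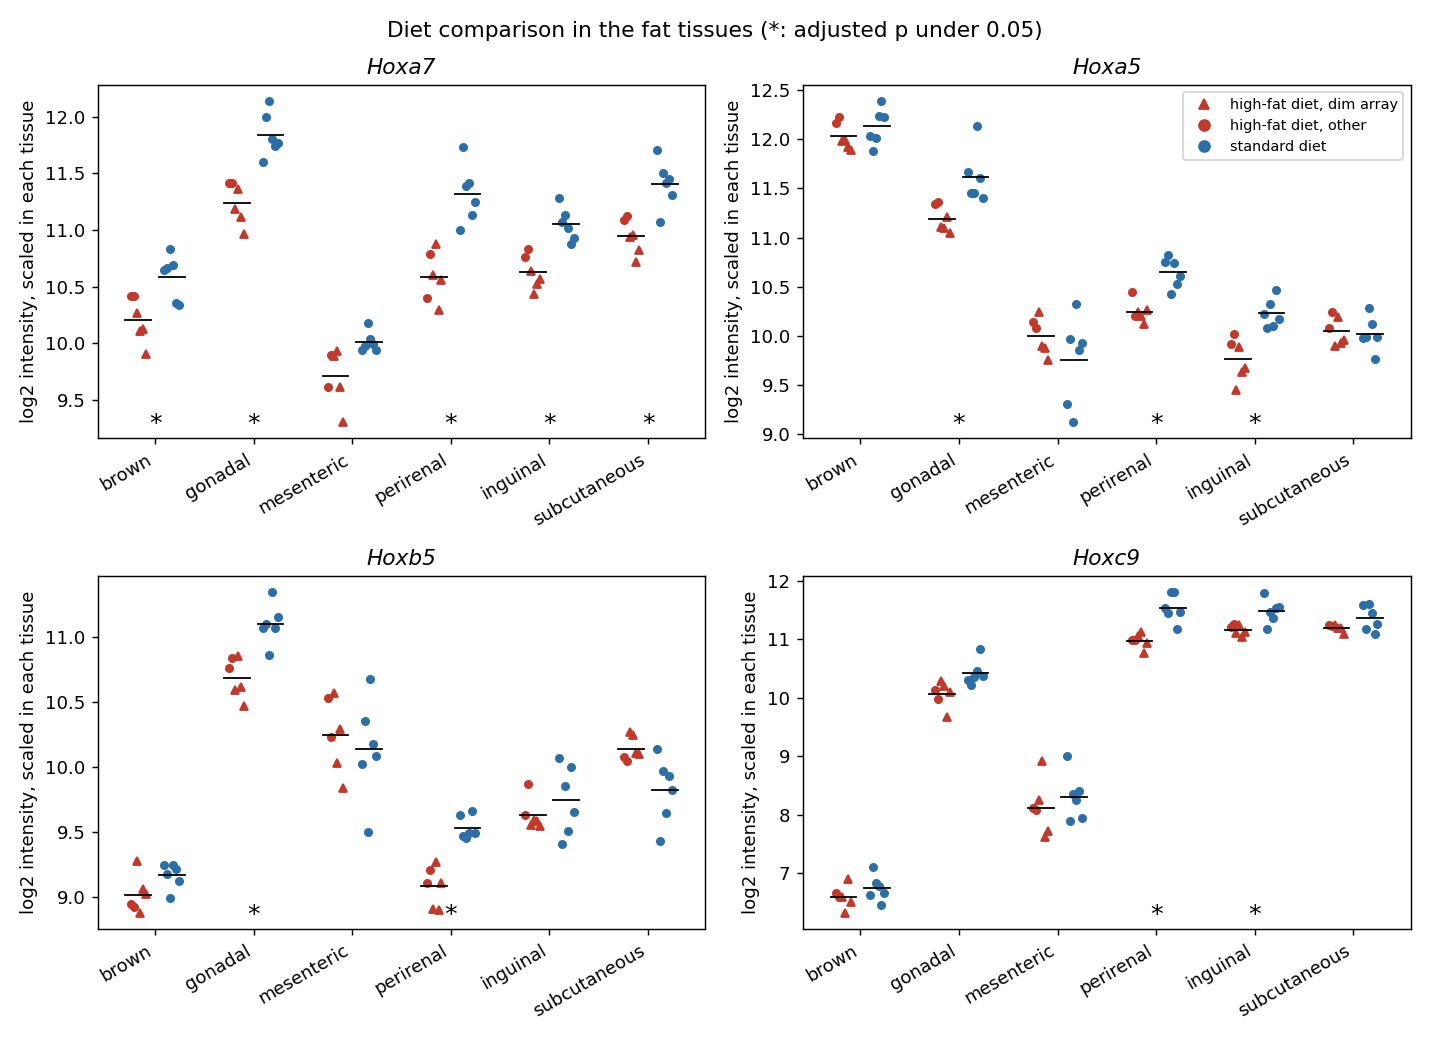
Log2 intensity, normalized within each tissue (vertical axes), of 4 Hox genes on every array of the 6 fat tissues, with the high-fat diet left of the standard diet, dim HFD arrays as triangles, bars at the means and asterisks at an adjusted p under 0.05. Hoxa7 carries 5 asterisks, and its gonadal and perirenal groups do not overlap.

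Of the genes around the Hox clusters, the polycomb gene Cbx7 was called lower on the HFD in 5 of the 6 fat tissues. The difference was -0.84 ± 0.11 in inguinal, -0.59 ± 0.11 in perirenal, -0.52 ± 0.14 in gonadal, -0.42 ± 0.12 in subcutaneous and -0.31 ± 0.08 in brown fat. In mesenteric fat Cbx7 did not pass (-0.07, limma adjusted p = 0.764). These fits took no account of the dim HFD arrays. Whether the Cbx7 calls or the counts below hold with a term for those arrays was not tested. Of the 17 polycomb genes measured, 14 were tested in each fat tissue. Lower were 2 in brown, 1 in gonadal, 2 in inguinal, 2 in perirenal and 1 in subcutaneous fat, with 1 higher in inguinal fat. Over all probes tested, the shares called lower were 7.53% in brown, 5.51% in gonadal, 11.6% in inguinal, 12.1% in perirenal and 10.3% in subcutaneous fat. In inguinal fat 10.9% of all probes tested were called higher. Of the TALE cofactors 3 of 6 tested were lower in inguinal fat, and the retinoic acid list had at most 1 call in any tissue.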

How the data were processed

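RNA of 8 tissues was measured on Illumina Mouse-6 arrays, 1 array per sample. The authors deposited, for each array, the intensity of 46632 probes and a table of log2 values. The deposited intensity values are not normalized, and whether background was subtracted from them is not given in the sources used here. For comparison, the deposited log2 values equalled a quantile normalization of log2 intensities to within 0.00191, with a median of 7.39 in the column, and were used as an alternative. Probes were named through the platform annotation, which gave a single symbol to 29976 probes, several to 10 and none to 16646; 29921 matched the reference gene table.

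Here intensities were corrected with normexp (offset 50), log2-transformed and quantile-normalized, over all 96 arrays for the tissue comparisons and within each tissue for the diet comparisons. limma 3.58.1 in R 4.3.3 fitted 1 mean per group. Tissue contrasts weighted depots equally. Benjamini-Hochberg adjustment ran over 46632 probes for tissue and, for diet, over the 23316 probes above the median of each tissue. Calls used an adjusted p under 0.05. The fits were tested on simulated data. Where a group had no array above background, a fold is given as at least the brighter mean over the higher of that group's own level and its background level.

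Per tissue comparison, up to 8 Hox genes with the largest differences past the threshold were named, per diet test every Hox gene that passed or the 2 with the smallest p, per other list up to 4 genes, and the 12 genes with the widest tissue range were read on each array. The members and lists were chosen with earlier results of these data known. The labels call the 6 arrays of a group biological replicates and do not say which tissues share an animal. Samples of the same number in the 2 diets had correlated deviations over 0.1 in at most 4 of the 6 pairs of any tissue. The correlations ran from -0.438 to 0.48 and were all above 0 in liver and muscle. Their median was -0.013 in mesenteric fat and 0.0904 to 0.211 in the other tissues. The numbers were not taken as pairs in the main fits. Within a diet, same-number samples of 2 tissues had a median correlation of 0.151 on the HFD and 0.129 on the SBD. For samples of other numbers it was -0.0266 and -0.041. The main fits treated the arrays as independent, and fits with the number as a random block are given below.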

Additional observations from a re-analysis of the deposited data

Results flagged for a closer look

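In groups of 6 arrays, a single array stood apart from the other 5 in 15 of 192 groups of the 12 widest-ranging genes. Chance gives about 1 in 20. In brown fat these were Hoxd8 at 8.42 (HFD replicate 3, low), Hoxc8 at 11.3 and Hoxd9 at 7.96 (both SBD replicate 2, high). In gonadal fat on the SBD they were Hoxa5 at 11.47 (replicate 4, high) and Hoxd9 at 7.75 (replicate 5, low). In inguinal fat they were Hoxb5 at 9.23 (HFD replicate 2, high), Hoxd4 at 9.25 (HFD replicate 4, high) and Hoxc8 at 13.64 (SBD replicate 1, high), and in subcutaneous fat Hoxb7 at 9.59 (SBD replicate 2, low). In liver, where these genes were not above background, they were Hoxc8 at 7.0 (HFD replicate 3) and at 6.9 (SBD replicate 1), Hoxa9 at 6.53 (SBD replicate 2), Hoxc6 at 5.91 (SBD replicate 1) and Hoxd8 at 6.61 (SBD replicate 4). In muscle it was Hoxa5 at 9.21 (SBD replicate 6, low).

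The diet difference itself differed between tissues for 10 of 52 Hox probes in limma's test over all 8 tissues. Of all probes, 11% were called. The p-values below are of this test, while the differences come from the fits within each tissue, where not all of them passed. Among those that did not were Hoxa5 in mesenteric fat, Hoxb5 in subcutaneous fat and Hoxd11 in mesenteric fat and liver (limma adjusted p = 0.497, 0.0508, 0.286 and 0.294). Hoxa7 had the smallest adjusted p (2.71e-05, and 0.0211 for its second probe), with HFD minus SBD differences of -0.73 in perirenal fat and 0.04 in muscle. Hoxa5 (limma adjusted p = 0.000433) differed by -0.47 in inguinal, -0.43 in gonadal and 0.25 in mesenteric fat. Hoxb5 (limma adjusted p = 0.00367) differed by -0.45 in perirenal and 0.32 in subcutaneous fat. Hoxc8 (limma adjusted p = 0.00707) differed by -0.53 in inguinal and in perirenal fat and 0.10 in brown fat. Hoxd11 (limma adjusted p = 0.00462) differed by -0.34 in mesenteric fat and 0.20 in liver, and Hoxc4 (limma adjusted p = 0.00987) by -0.43 in mesenteric fat and 0.10 in muscle. Hoxa3 (limma adjusted p = 0.0116) differed by -0.57 in inguinal and 0.08 in mesenteric fat. Hoxd4 (limma adjusted p = 0.032) differed by 0.31 in brown fat and -0.18 in muscle, and Hoxd8 (limma adjusted p = 0.0257) by -0.48 in perirenal and 0.30 in subcutaneous fat. The dim HFD arrays occur in the fat tissues alone, and without them 1 probe was called.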

How the results depend on the processing

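The tissue differences of the named Hox genes kept their direction under every alternative run. Apart from the runs that leave out 1 array, 447 values stayed on the same side of the threshold and 22 lost it, and in those runs 1239 stayed and 33 lost it. With 1 array left out 304 diet values stayed and 68 lost the threshold. Under the other alternatives 245 stayed, 114 lost the threshold, 2 gained it and 3 turned sign, all 3 under median scaling: Hoxb7 (-0.06634) and Hoxc6 (-0.1477) in brown fat and Hoxd4 (-0.00262) in subcutaneous fat. Median scaling left 2 called Hox probes between inguinal and subcutaneous fat and 2 for diet in perirenal fat. It left 0 in brown, gonadal, inguinal and subcutaneous fat and 0 for the diet difference between tissues. Leaving out the dim HFD arrays left 1 of the last. Under median scaling the share called higher was 53.8% for muscle, 28.6% for abdominal fat, 25% for brown fat and 100% for inguinal fat. A term for the dim arrays left 1 call in perirenal fat and 0 in brown, gonadal, inguinal and subcutaneous fat. Bright arrays alone left 0 in these 5, and brightness as a covariate left 0 in brown, 3 in gonadal and 2 in inguinal fat. With a fold of at least 1.5 the counts were 8 for brown, 4 for abdominal, 1 for inguinal against subcutaneous, 14 for muscle and 17 for liver. For diet they were 1 in gonadal and in perirenal fat and 0 in brown, inguinal and subcutaneous fat. In brown fat no filter gave 2 and array weights 8 diet calls. Taking 1 probe per gene gave 3 in gonadal and 5 in inguinal fat, and 1 fit over all 96 arrays gave 2 in mesenteric fat, 1 in subcutaneous fat and 1 in liver. With depots left out, chosen after seeing the data, 14 abdominal calls were made without perirenal and 14 without mesenteric fat. At the 99th percentile of the receptors, probes above background numbered 10 in brown, 13 in mesenteric, 15 in perirenal and 15 in subcutaneous fat and 3 in liver on the SBD, and 13 in gonadal fat and 4 in liver on the HFD. Leaving out 1 array at a time gave 33 to 37 calls for any tissue, 16 to 21 for brown, 8 to 10 for abdominal, 20 to 24 within the abdomen, 4 to 7 for inguinal against subcutaneous, 25 to 30 for muscle and 31 to 34 for liver. For diet it gave 0 to 5 in brown, 4 to 7 in gonadal, 3 to 10 in inguinal, 10 to 14 in perirenal and 1 to 5 in subcutaneous fat and 0 to 0 in mesenteric fat, liver and muscle. The brown diet calls fell to 0 or 1 without any of SBD replicates 1 to 4 or HFD replicates 3 to 6. The inguinal ones fell to between 3 and 5 without SBD replicate 1, 5 or 6 or HFD replicate 3, 4 or 5. The subcutaneous ones became 5 without HFD replicate 1 and 1 without HFD replicate 3. The cause of these changes was not tested.

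With the replicate number as a block, diet calls numbered 4 in brown, 6 in gonadal, 9 in inguinal, 0 in mesenteric, 11 in perirenal and 4 in subcutaneous fat and 0 in liver and muscle. As a random block over tissues (correlation 0.112) the calls numbered 37 for any tissue, 22 for brown, 9 for abdominal, 24 within the abdomen, 7 for inguinal against subcutaneous, 30 for muscle, 34 for liver and 14 for the diet difference between tissues. Signal over background limits the genes in which a difference can be seen: 14 of 37 were not above it anywhere.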
